A study of Homo sapiens with 6 samples.

Results

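The genes described here make up the folding and disposal machinery of the endoplasmic reticulum (ER): its chaperones, its disulfide isomerases, the sensors that adjust their supply, and the apparatus of ER-associated degradation (ERAD). They were given as a list of 35 gene symbols grouped by function. The list was drawn up with earlier results of these data known. A gene was measured where a row of the array table carried its symbol alone, and the brightest row over the 6 arrays was used, which gave 34 of the 35 genes among 18417 genes tested. PDIA3 has no row of its own, because its rows carry several symbols, and it is not analysed here.

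RNA came from YCC3, a human gastric cancer cell line, grown in medium with serum and transfected with siRNA against CTNNB1 (3 arrays) or with non-targeting control siRNA (3 arrays). Both groups were therefore transfected with siRNA, and RNA was isolated 48 hours later. An siRNA is a small RNA duplex that makes the cell destroy a matching mRNA, and CTNNB1 encodes beta-catenin, through which Wnt signals reach transcription. The question was what silencing of CTNNB1 does to the cells' mRNAs. All samples come from 1 cell line, the labels do not give the siRNA sequences, and they call the samples biological replicates without saying that they were separate transfections, so p-values measure only the spread between these samples. Values are log2 RMA signals, a scale on which a difference of 1 is a doubling of the array signal.

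A secreted or membrane protein enters the ER through the SEC61 channel, folds with the help of Hsp70, Hsp90 and lectin chaperones, and has its disulfide bonds set by isomerases. Proteins that fail to fold are pulled back through the membrane, tagged with ubiquitin and given to the proteasome, which is ERAD. When unfolded proteins build up, the sensors ATF6, ERN1 (also called IRE1) and EIF2AK3 (PERK) start the unfolded protein response, which raises transcription of chaperone and ERAD genes through ATF6 and XBP1. Secretory epithelia such as the gastric lining depend on this machinery.

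The targeted transcript, CTNNB1, measured 10.94, 11.06 and 11.20 in the CTNNB1 siRNA arrays, against 11.80, 11.81 and 11.90 in the control siRNA arrays, which is 41.4% less signal (limma, adjusted p = 0.00267). The median signal of an array was 5.88 to 5.95. Of 10 epithelial and gastric markers, KRT8 and EPCAM were among the bright ones, with array means of 13.57 and 11.79, and TFF2 lay at 5.88. Of these markers 2 rose, a share of 20% against 2.07% of all genes. Of their changes 9 of 10 were positive, against 9425 of all 18417 genes. Those that rose were the trefoil peptide gene TFF1 and the tight junction gene CLDN4, both named after their values were seen. The median level of the 10 markers was 10.29 to 10.41 in the CTNNB1 siRNA arrays, against 9.82 to 9.97 in the control siRNA arrays, without overlap. The median of their changes was 0.07, and in 5 of the 10 markers the groups overlapped, as in 13625 of all 18417 genes. In 4 markers every CTNNB1 siRNA array was above every control siRNA array, against 10.8% of all genes. In 1 marker it was the other way round, against 15.2% of all genes. Leukocyte markers (7 measured, means of 2.63 to 6.54) and endothelial and fibroblast markers (10 measured, means of 2.30 to 6.72) were mostly dim, and none was called in either direction. Changes were also positive in all 7 leukocyte markers and in 7 of the 10 endothelial and fibroblast markers. The medians of these changes were 0.10 and 0.13. The median of the leukocyte markers was 4.60 to 4.88 in the CTNNB1 siRNA arrays, against 4.54 to 4.73 in the control siRNA arrays, and that of the endothelial and fibroblast markers was 4.56 to 4.70 in CTNNB1 siRNA arrays, against 4.28 to 4.64 in control siRNA arrays. In the same arrays all 15 measured interferon-stimulated genes rose, with a median change of 2.72. Their median level was 9.05 to 9.29 in CTNNB1 siRNA arrays and 6.06 to 6.34 in control siRNA arrays, and the part of either shift in the results below was not tested.

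As a group the ER genes lay lower after CTNNB1 siRNA. Of the 34 measured, 7 fell, none rose and 27 did not pass the threshold (limma, adjusted p under 0.05 over all 18417 genes). Of all genes tested, 2.65% fell and 2.07% rose. The genes that fell were CLGN, SEL1L, SDF2L1, DNAJC3, HYOU1, PDIA4 and HSPA5, and the changes other than that of CLGN, whose signal was dim, ran from -0.64 to -0.41. The median change of the 34 was -0.22, against 0.01 for all genes, and 28 of the 34 changes were negative, against 48.8% of all genes. Without CLGN, 6 of 33 fell and the median was -0.20. At an unadjusted p under 0.05, 16 members were lower and none higher, while 12% of all genes were lower and 8.34% higher at that p. RNA from whole cultures cannot tell a lower level in every cell from a change in some of the cells. In 20 of the 34 every CTNNB1 siRNA array was below every control siRNA array, which held for 15.2% of all genes, and in none was it the other way round, against 10.8% of all genes.

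**Figure D1:**
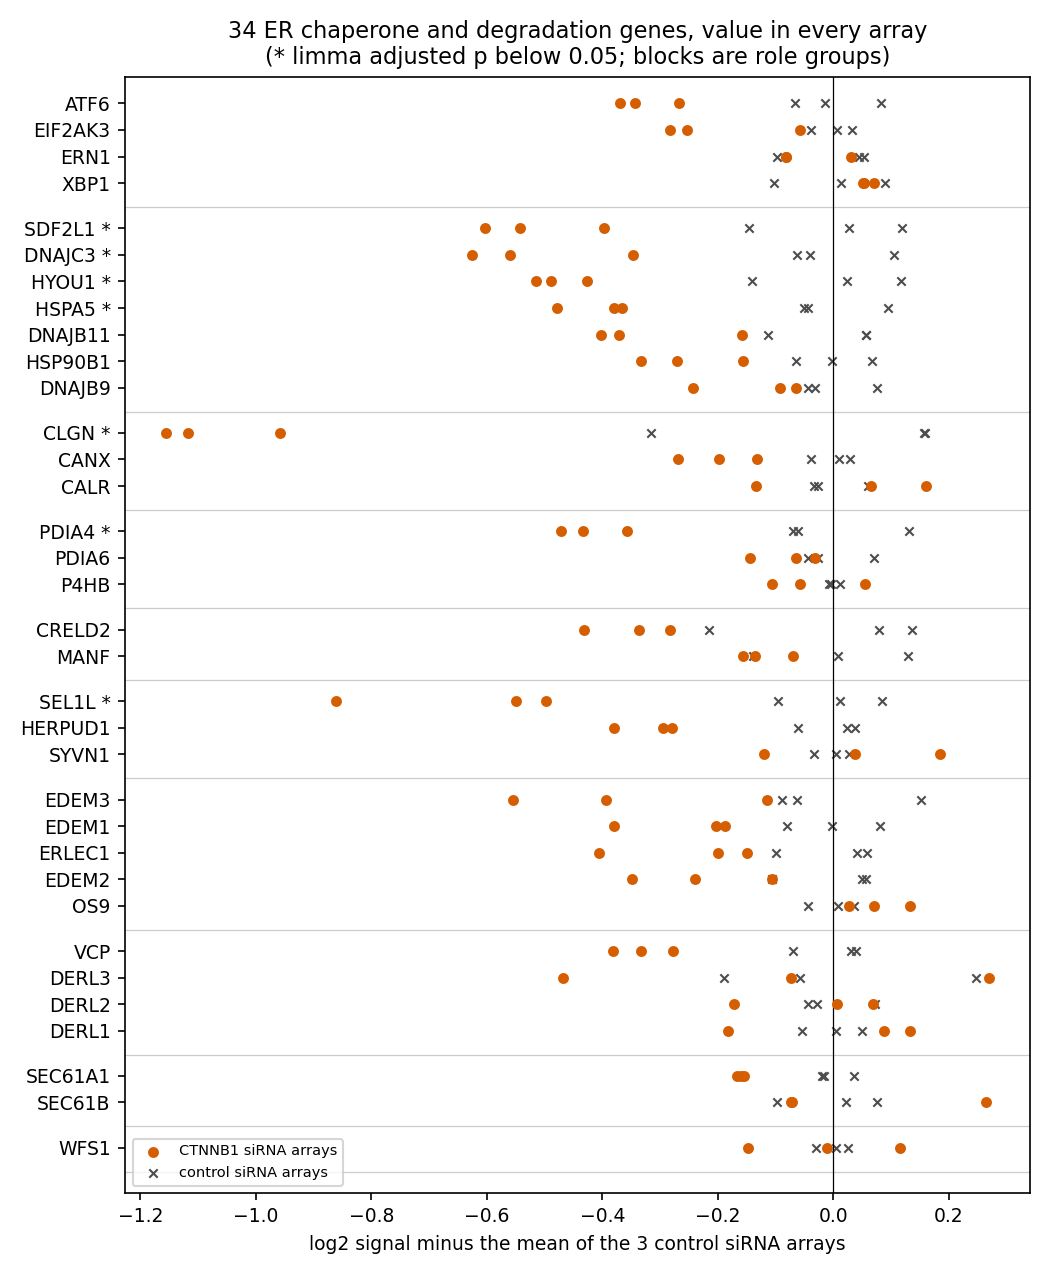
Each row is a gene and each point an array: the x axis is its log2 signal minus the mean of the 3 control siRNA arrays (orange circles, CTNNB1 siRNA; dark crosses, control siRNA), with genes in blocks by role and an asterisk on the 7 that fell. Every member of the Hsp70 and Hsp90 block has its circles left of its crosses, while SYVN1, CALR, P4HB, the derlins and WFS1 overlap.

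The displacement was present in each array. The median over the members of the value minus the control mean was -0.23, -0.25 and -0.16 in CTNNB1 siRNA replicates 1, 2 and 3, against 0.04, -0.02 and -0.003 in the control siRNA arrays. The same median over all genes stayed between -0.02 and 0.02 in every array. RMA gives all arrays alike distributions, which keeps that median near 0. The control siRNA arrays also lie near 0 because their own mean was subtracted. Control replicate 1 was the array in which the members were highest, with 10 of 34 below the control mean, while the other control arrays each had 19.

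Of the members, 33 lie in the brighter 50% of genes, and bright genes as a whole also lay lower. When only the brighter 50% of genes were tested, 13.2% of 9208 genes fell and their median change was -0.05. In that test 12 of 33 members fell, CLGN being too dim to enter, and the members' median was -0.20.

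**Figure D2:**
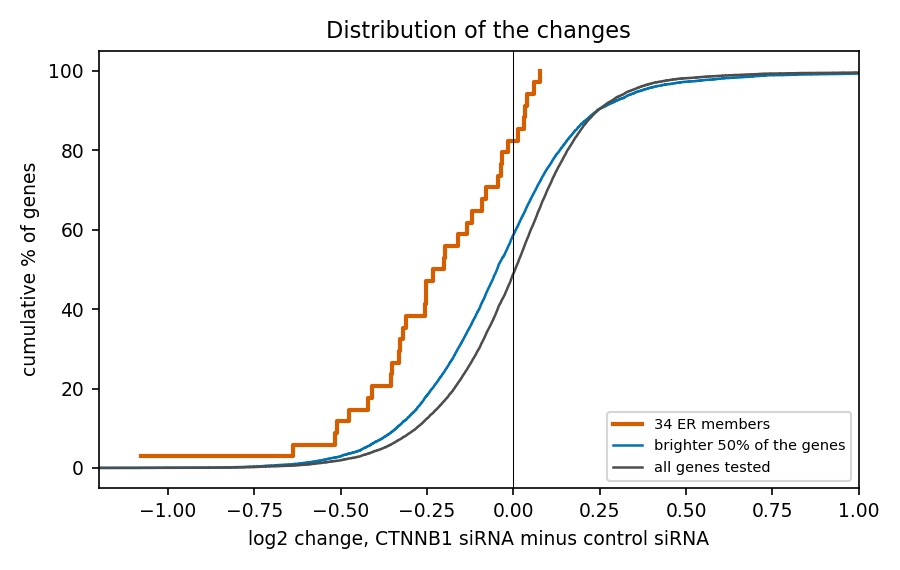
The curves give the cumulative percent of genes (y axis) at or below each log2 change, CTNNB1 siRNA minus control siRNA (x axis), for the 34 ER members, the brighter 50% of the genes and all genes tested. The members' curve lies to the left of the others, with its median at -0.22, and ends at 0.08.

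The Hsp70 and Hsp90 chaperones and their partners held 4 of the 7 falls, or 57.1% of this group against 2.65% of all genes. All 7 measured members of this group had lower values in every CTNNB1 siRNA array than in any control siRNA array. That held for 15.2% of all genes. The median change of the group was -0.41, and these shares were not matched for brightness. HSPA5, known as BiP, is the Hsp70 of the ER lumen and also holds the stress sensors inactive. HSPA5 measured 12.63, 12.73 and 12.74 in CTNNB1 siRNA arrays, against 13.20, 13.06 and 13.06 in control siRNA arrays. The groups did not overlap, and the fall of 0.41 ± 0.10 log2 units (SE) is 24.6% less signal (95% confidence interval 12.6% to 34.98%; limma, adjusted p = 0.0409).

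HYOU1, a large Hsp70 relative that helps BiP release its nucleotide, measured 8.75, 8.84 and 8.78 in CTNNB1 siRNA arrays, against 9.39, 9.13 and 9.29 in control siRNA arrays. Its change was -0.48 ± 0.10 (SE; limma, adjusted p = 0.0273). SDF2L1, which works with the J-protein DNAJB11 to keep BiP clients soluble, measured 8.056, 8.202 and 7.996 in CTNNB1 siRNA arrays, against 8.63, 8.72 and 8.45 in control siRNA arrays. That is a change of -0.51 ± 0.11 (SE; limma, adjusted p = 0.0254). DNAJC3, a J-protein that binds unfolded clients and passes them to BiP, measured 9.15, 9.22 and 9.43 in CTNNB1 siRNA arrays, against 9.88, 9.73 and 9.71 in control siRNA arrays. Its change was -0.51 ± 0.11 (SE; limma, adjusted p = 0.0265). The gap between the groups was wider than the range of either group in HYOU1 and DNAJC3, and narrower than the range of the control siRNA arrays in SDF2L1.

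The remaining members of the chaperone group were lower without passing the threshold. DNAJB11 measured 10.55, 10.52 and 10.77 in CTNNB1 siRNA arrays, against 10.98, 10.81 and 10.98 in control siRNA arrays (adjusted p = 0.134 in limma). HSP90B1, the ER form of Hsp90 known as GRP94, measured 12.03, 12.09 and 12.20 in CTNNB1 siRNA arrays, against 12.43, 12.30 and 12.36 in control siRNA arrays (adjusted p = 0.173 in limma). DNAJB9, a J-protein that directs BiP to the sensor ERN1, changed least of the group, with -0.13 ± 0.10 (SE) and a 95% interval of -0.35 to 0.08.

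**Figure D3:**
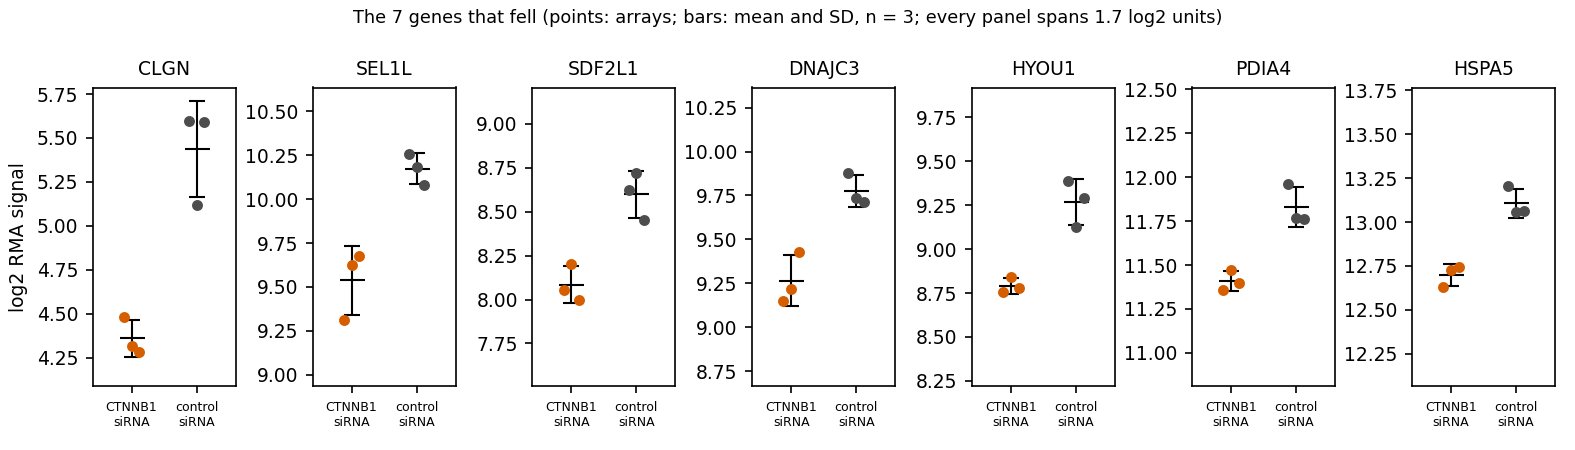
Log2 RMA signal (y axis) of the 7 genes that fell, with CTNNB1 siRNA on the left and control siRNA on the right of each panel; points are arrays and bars the mean and SD of 3. All panels span the same 1.7 log2 units, so the difference of SEL1L (0.64) is visibly wider than that of HSPA5 (0.41); the values of CLGN lie below the array medians.

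The promoters of several of these genes carry the sequence through which ATF6 and XBP1 act, the ER stress response element (ERSE). The letters searched were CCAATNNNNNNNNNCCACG for ERSE and ATTGGNCCACG for its shorter relative ERSE-II, on both strands, in RefSeq windows (GRCh38.p14) from 250 bases before to 50 bases after each gene's start. Windows were found for 32 members. ERSE was present in 7 of these 32 genes, against 0.0916% of the 27305 genes with a window, and ERSE-II in 3 others, against 0.0696% of genes. The stretches below are the 250 bases before the start of 3 genes that fell and hold the element, read 5′ to 3′ on the gene's strand, with the element in capitals.
HSPA5, chr9:125241344-125241593, minus strand: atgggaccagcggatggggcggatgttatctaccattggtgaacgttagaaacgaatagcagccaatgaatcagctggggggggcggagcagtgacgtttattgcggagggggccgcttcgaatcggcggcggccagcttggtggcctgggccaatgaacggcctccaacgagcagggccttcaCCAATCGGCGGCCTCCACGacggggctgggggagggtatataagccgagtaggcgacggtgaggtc
HYOU1, chr11:119057206-119057455, minus strand: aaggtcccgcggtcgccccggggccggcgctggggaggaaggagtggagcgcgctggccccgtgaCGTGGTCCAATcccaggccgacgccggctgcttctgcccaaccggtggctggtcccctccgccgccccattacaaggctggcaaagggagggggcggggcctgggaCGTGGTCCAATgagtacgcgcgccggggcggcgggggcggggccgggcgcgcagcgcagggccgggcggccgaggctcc
SDF2L1, chr22:21642052-21642301, plus strand: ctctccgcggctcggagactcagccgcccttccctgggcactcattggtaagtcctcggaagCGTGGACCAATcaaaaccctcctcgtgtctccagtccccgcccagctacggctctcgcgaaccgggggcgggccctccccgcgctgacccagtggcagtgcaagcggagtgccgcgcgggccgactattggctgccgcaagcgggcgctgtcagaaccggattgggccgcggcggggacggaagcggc

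The capitals of HSPA5 are ERSE on the gene's own strand, and those of HYOU1 and SDF2L1 are ERSE-II on the opposite strand, where HYOU1 holds it at 2 places. The upstream one in HYOU1 overlaps the XBP1-type letters TGACGTGG, which occur in 0.927% of genes with a window and among the members also in VCP.

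The element was also present in members that did not pass the threshold. The next stretches show it, in capitals, with 11 bases on either side, in the other 7 members that hold it, HSP90B1 at 2 places, ordered from the most negative change to the most positive.
CRELD2, chr22:49918543-49918583, plus strand: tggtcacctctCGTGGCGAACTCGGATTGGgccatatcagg
HERPUD1, chr16:56932014-56932046, plus strand: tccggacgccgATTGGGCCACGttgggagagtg
HSP90B1, chr12:103930205-103930245, plus strand: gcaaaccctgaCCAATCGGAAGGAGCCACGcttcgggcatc
HSP90B1, chr12:103930310-103930350, plus strand: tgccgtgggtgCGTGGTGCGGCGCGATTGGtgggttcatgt
CANX, chr5:179698767-179698807, plus strand: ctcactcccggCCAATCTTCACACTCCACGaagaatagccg
PDIA6, chr2:10812842-10812882, minus strand: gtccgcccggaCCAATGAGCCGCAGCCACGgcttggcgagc
CALR, chr19:12938373-12938413, plus strand: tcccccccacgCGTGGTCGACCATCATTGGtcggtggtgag
XBP1, chr22:28800592-28800632, minus strand: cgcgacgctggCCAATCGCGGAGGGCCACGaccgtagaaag

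The 10 members with ERSE or ERSE-II changed by -0.51 to 0.06, with a median of -0.29 and 3 falls. The 22 members with a window and neither element had a median of -0.21 and 4 falls, and apart from CLGN they changed by -0.64 to 0.08. These are descriptions of the letters in these windows: no binding was measured, and the sets were not tested against each other. The letters CTTTGAT, a core of the sites bound by the TCF/LEF partners of beta-catenin, were in none of the 39 windows of the members and in 2.62% of all windows. That share is too low for their absence from 39 windows to set the members apart, and sites outside the windows were not searched.

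Among the lectin chaperones, which hold newly made glycoproteins until their sugars are trimmed, CLGN fell and the others did not pass. CLGN, calmegin, is a relative of calnexin best known from the testis. It measured 4.48, 4.32 and 4.28 in CTNNB1 siRNA arrays, against 5.59, 5.12 and 5.59 in control siRNA arrays. The groups did not overlap, and the row was called lower (limma, adjusted p = 0.00225). All 6 values lay below the array medians, so the signal was not shown to be above background, and no size is given for the change.

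CANX, calnexin itself, measured 12.09, 12.16 and 12.23 in CTNNB1 siRNA arrays, against 12.37, 12.32 and 12.39 in control siRNA arrays. The groups did not overlap but the change of -0.20 ± 0.09 (SE) did not pass (limma, adjusted p = 0.26). CALR, the soluble lectin chaperone calreticulin, overlapped between groups and changed by 0.03 ± 0.11 (SE), with a 95% interval of -0.20 to 0.26.

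Of the 3 disulfide isomerases measured among the members, PDIA4 fell. PDIA4, which carries several thioredoxin-like domains, measured 11.36, 11.47 and 11.40 in CTNNB1 siRNA arrays, against 11.96, 11.77 and 11.76 in control siRNA arrays. The change was -0.42 ± 0.10 (SE; limma, adjusted p = 0.042), or 25.3% less signal. PDIA6, which also limits signalling by the sensors, changed by -0.08 ± 0.09 (SE) and P4HB, the founding disulfide isomerase, by -0.04 ± 0.09 (SE), and in both the groups overlapped. P4HB has a second row on the array, whose change was 0.10 and also did not pass.

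The secreted members did not pass. CRELD2, a stress-induced ER protein, measured 7.998, 8.052 and 7.903 in CTNNB1 siRNA arrays, against 8.41, 8.47 and 8.12 in control siRNA arrays. The groups did not overlap, and the change was -0.35 ± 0.11 (SE; limma, adjusted p = 0.116). MANF, a trophic factor released under ER stress, changed by -0.12 ± 0.10 (SE), with overlapping groups.

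In the ERAD ligase complex the scaffold SEL1L fell while its ligase did not. SEL1L, which anchors and stabilises the ubiquitin ligase SYVN1 (also called HRD1) and brings substrates to it, measured 9.31, 9.62 and 9.68 in CTNNB1 siRNA arrays, against 10.26, 10.18 and 10.08 in control siRNA arrays. The change was -0.64 ± 0.12 (SE; limma, adjusted p = 0.0151), or 35.7% less signal (95% confidence interval 22.8% to 46.4%). CTNNB1 siRNA replicate 1 was the lowest array, and the groups stood 0.40 log2 units or more apart. SYVN1 changed by 0.03 ± 0.10 (SE), with a 95% interval of -0.20 to 0.27.

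The promoter of SEL1L holds neither element in full, but it holds both when 1 letter may differ. With that allowance ERSE was in 14 of the 32 members and ERSE-II in 7, against 1.89% and 1.46% of genes with a window, and SYVN1, which did not fall, also holds both. Below are the 250 bases before the start of SEL1L, with every CCAAT and CCACG, read on either strand, in capitals. The capitals do not mark the 2 elements: some lie outside them, and the 5 letters that hold a mismatch stay in lower case.
SEL1L, chr14:81533854-81534103, minus strand: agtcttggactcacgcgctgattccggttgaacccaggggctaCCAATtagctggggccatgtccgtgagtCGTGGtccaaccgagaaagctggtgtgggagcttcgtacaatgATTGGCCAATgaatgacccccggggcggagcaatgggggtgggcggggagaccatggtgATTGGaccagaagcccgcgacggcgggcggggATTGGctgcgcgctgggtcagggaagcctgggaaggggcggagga

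HERPUD1, a membrane protein that assembles with SYVN1 and is among the most stress-inducible ERAD genes, measured 10.96, 11.06 and 11.05 in CTNNB1 siRNA arrays, against 11.36, 11.38 and 11.28 in control siRNA arrays. The groups did not overlap, and the change was -0.32 ± 0.09 (SE; limma, adjusted p = 0.0818).

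Of the mannosidase family and the lectins that mark glycoproteins for ERAD, none passed and 4 of 5 changes were negative. EDEM3, which trims mannose from misfolded glycoproteins, measured 7.82, 7.66 and 8.10 in CTNNB1 siRNA arrays, against 8.37, 8.15 and 8.13 in control siRNA arrays (adjusted p = 0.153 in limma). EDEM1, its stress-inducible relative, measured 8.18, 7.99 and 8.16 in CTNNB1 siRNA arrays, against 8.45, 8.29 and 8.36 in control siRNA arrays (adjusted p = 0.183 in limma). The gap between groups was narrow in both genes, and in each it was smaller than the range of either group.

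ERLEC1, a lectin that delivers trimmed glycoproteins to SEL1L, measured 7.84, 7.63 and 7.89 in CTNNB1 siRNA arrays, against 8.10, 7.94 and 8.08 in control siRNA arrays (adjusted p = 0.214 in limma). EDEM2, which makes the first mannose cut, changed by -0.23 ± 0.10 (SE), with groups that met at 8.17. OS9, the other lectin bound to SEL1L, had the most positive change of all members, 0.08 ± 0.09 (SE), with overlapping groups.

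VCP, the ATPase that pulls ubiquitinated proteins out of the membrane, measured 11.51, 11.56 and 11.61 in CTNNB1 siRNA arrays, against 11.93, 11.82 and 11.92 in control siRNA arrays. The groups stood apart and the change was -0.33 ± 0.09 (SE), but it did not pass (limma, adjusted p = 0.0737). The derlins, which thin the membrane for the exit of ERAD substrates, overlapped between groups, with changes of 0.01 for DERL1, -0.03 for DERL2 and -0.09 for DERL3. DERL3 was the member with the widest spread, from 6.18 to 6.92 in CTNNB1 siRNA arrays and 6.46 to 6.90 in control siRNA arrays, so its 95% interval of -0.49 to 0.31 leaves room for a change of the size seen in HSPA5.

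The sensors and XBP1 did not pass. ATF6, whose released cytosolic part is the transcription factor that acts on ERSE, measured 9.19, 9.22 and 9.29 in CTNNB1 siRNA arrays, against 9.54, 9.49 and 9.64 in control siRNA arrays. The groups did not overlap, and the change was -0.33 ± 0.09 (SE; limma, adjusted p = 0.0806). EIF2AK3, which slows translation under stress, measured 7.87, 7.90 and 8.09 in CTNNB1 siRNA arrays, against 8.11, 8.18 and 8.16 in control siRNA arrays (adjusted p = 0.301 in limma).

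ERN1, the sensor that splices XBP1 mRNA, measured 7.55, 7.44 and 7.44 in CTNNB1 siRNA arrays, against 7.56, 7.57 and 7.42 in control siRNA arrays. XBP1, the transcription factor made from the spliced mRNA, measured 11.23, 11.25 and 11.23 in CTNNB1 siRNA arrays, against 11.27, 11.19 and 11.07 in control siRNA arrays. Both overlapped between groups, with changes of -0.04 ± 0.10 and 0.06 ± 0.10 (SE) and 95% intervals of -0.26 to 0.17 and -0.15 to 0.27. A value per gene does not separate spliced from unspliced XBP1 mRNA, and mRNA levels do not show whether a sensor was active.

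Of the translocon subunits, SEC61A1, the channel itself, was lower in every CTNNB1 siRNA array, at 10.73 to 10.75 against 10.88 to 10.94 in control siRNA arrays, with a change of -0.16 ± 0.09 (SE; limma, adjusted p = 0.358). SEC61B, a small subunit of the channel, overlapped between groups (0.04 ± 0.12, SE). WFS1, an ER membrane protein whose loss causes Wolfram syndrome, changed by -0.01 ± 0.10 (SE).

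Partner genes with unlike changes were also compared within arrays, as the log2 ratio of their signals, for 3 pairs chosen after their values were seen. SEL1L over SYVN1 averaged 2.11 ± 0.34 in CTNNB1 siRNA arrays and 2.78 ± 0.06 in control siRNA arrays (SD, n = 3 each; exact permutation p = 0.1). PDIA4 over P4HB averaged -0.30 ± 0.12 in CTNNB1 siRNA arrays and 0.09 ± 0.10 in control siRNA arrays (SD, n = 3 each; exact two-sided permutation p = 0.1). The third pair, CLGN over CANX, is not given because the CLGN signal was not shown to be above background. In both pairs given the groups did not overlap, and 0.1 is the smallest p that 3 arrays against 3 allow, also after adjustment over the 3 pairs. Because the pairs were picked for unlike changes in these same arrays, the separation of their ratios is no further evidence of unequal change. A ratio of signals from different probes does not give relative abundance.

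Further genes of the ER were taken from 7 lists of 195 genes, of which 183 were measured. Of these, 9 fell (4.92%, against 2.65% of all genes) and 2 rose (1.09%, against 2.07%), 172 did not pass, and their median was -0.07. These shares were not matched for brightness. The calnexin cycle and glycan trimming list held 5 of the falls among 16 genes (31.2%), with a median of -0.18. UGGT1, which senses unfolded glycoproteins and sends them back to calnexin, measured 8.70, 8.75 and 8.98 in CTNNB1 siRNA arrays, against 9.46, 9.25 and 9.39 in control siRNA arrays (limma, adjusted p = 0.0201). Its relative UGGT2 changed by -0.50 ± 0.11, the Golgi mannosidase gene MAN1A1 by -0.42 ± 0.09 and MLEC, a lectin of early glycan processing, by -0.42 ± 0.10 (SE). LMAN1, a cargo receptor for ER export and named after its values were seen, changed by -0.38 ± 0.09 (SE; limma, adjusted p = 0.0486).

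Of 46 further ERAD genes 1 fell, a share of 2.17% that lies below the 2.65% of all genes. It was UBE2J1, the ubiquitin-conjugating enzyme of the SYVN1 complex, which fell by 0.44 ± 0.10 log2 units (SE; limma, adjusted p = 0.0408). Of 31 other disulfide isomerases and folding enzymes, DNAJC10, an ER reductase with a J domain, changed by -0.57 ± 0.12 and PRDX4, an ER peroxidase, by -0.44 ± 0.11, while QSOX1, a sulfhydryl oxidase of the secretory pathway, rose by 0.51 ± 0.10 (SE). That is 6.45% lower and 3.23% higher. Of 35 other regulators of the unfolded protein response 1 fell and 1 rose, 2.86% each: RTCB, the ligase that joins the cut ends of XBP1 mRNA, changed by -0.54 ± 0.13, and CREB3L3, a membrane-bound transcription factor of the ATF6 type, by 0.69 ± 0.13 (SE). No gene was called by limma among 10 other Hsp70 partners, 34 translocon, signal recognition and signal peptidase genes or 11 oligosaccharyltransferase genes. At an unadjusted p under 0.05 these lists held 3, 7 and 3 lower genes, or 30%, 20.6% and 27.3%, against 12% of all genes, and the first also held 1 higher gene. Their medians were -0.13, -0.08 and -0.14, against 0.01 for all genes. Gene means over the arrays ran from 6.66 to 11.81 in the translocon list and from 8.87 to 12.68 in the oligosaccharyltransferase list. Bright genes as a whole also lay lower, and none of the further ER lists was compared with genes of like brightness.

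**Figure D4:**
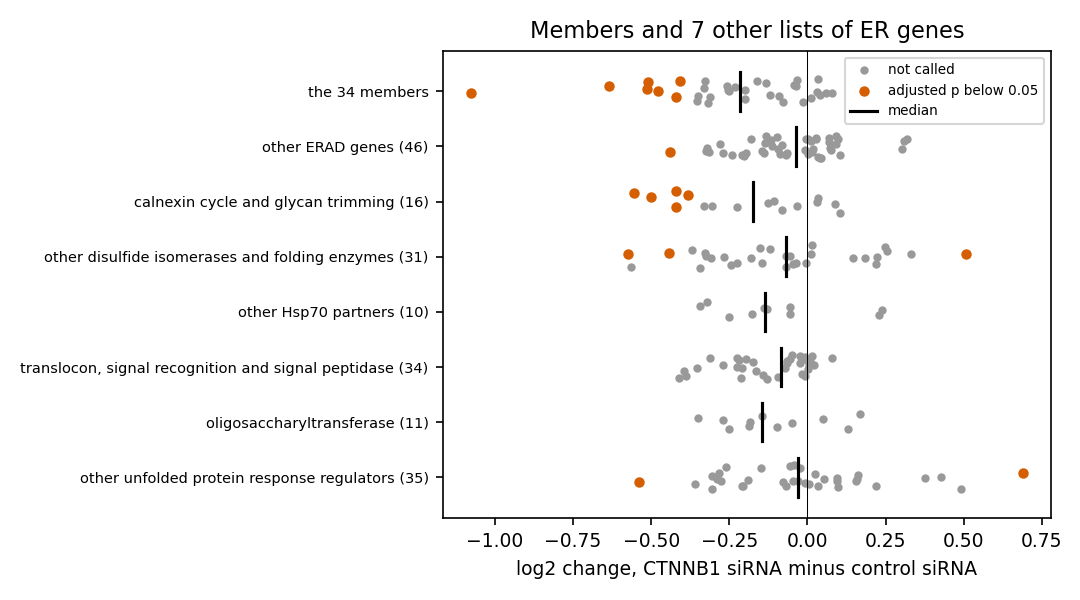
Each point is a gene, the x axis its log2 change (CTNNB1 siRNA minus control siRNA), and each row a list with its number of measured genes; orange points passed the threshold and black bars are medians. The members (median -0.22) and the calnexin cycle list (median -0.18) lie furthest to the left, and 2 of the orange points, QSOX1 and CREB3L3, lie right of 0.

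The calls of single members were mostly close to the threshold, and most were lost in some test with 1 array left out. Such a test also has fewer values to work with. Without control replicate 2 the change of HSPA5 was -0.43, more negative than the -0.41 with all arrays, and yet it did not pass. CLGN passed with any 1 array left out, with adjusted p of at most 0.0148. SEL1L was lost without control replicate 1 (adjusted p = 0.0807 in limma) or without CTNNB1 siRNA replicate 1 (0.0604). HSPA5 and PDIA4 were lost when any 1 array was left out, and their highest adjusted p were 0.177 and 0.183, without control replicate 1. The highest adjusted p of HYOU1, DNAJC3 and SDF2L1 were 0.136, 0.13 and 0.113, all without control replicate 1. The number of members that fell was 1 without control replicate 1 or CTNNB1 siRNA replicate 1 and 3 without any other array. Of all genes, 0.516% fell without control replicate 1 and 0.543% without CTNNB1 siRNA replicate 1. That share was 1.75% and 0.673% without control replicates 2 and 3, and 0.863% and 2.79% without CTNNB1 siRNA replicates 2 and 3. The 7 changes stayed negative whichever array was left out, and the members' median lay between -0.25 and -0.17.

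Scaling mattered as well. Under cyclic loess scaling 3 members fell, CLGN, SEL1L and DNAJC3, where 2.21% of all genes fell. After quantile normalization was applied again 4 fell, those 3 and HYOU1, where 2.51% of all genes fell. With a trended and robust variance 12 members fell, beside 5.63% of all genes. Over all genes 488 fell and 382 rose as deposited, and 407 fell and 486 rose under cyclic loess. RMA gives all arrays alike distributions, which hides any shift common to most genes.

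**Figure D5:**
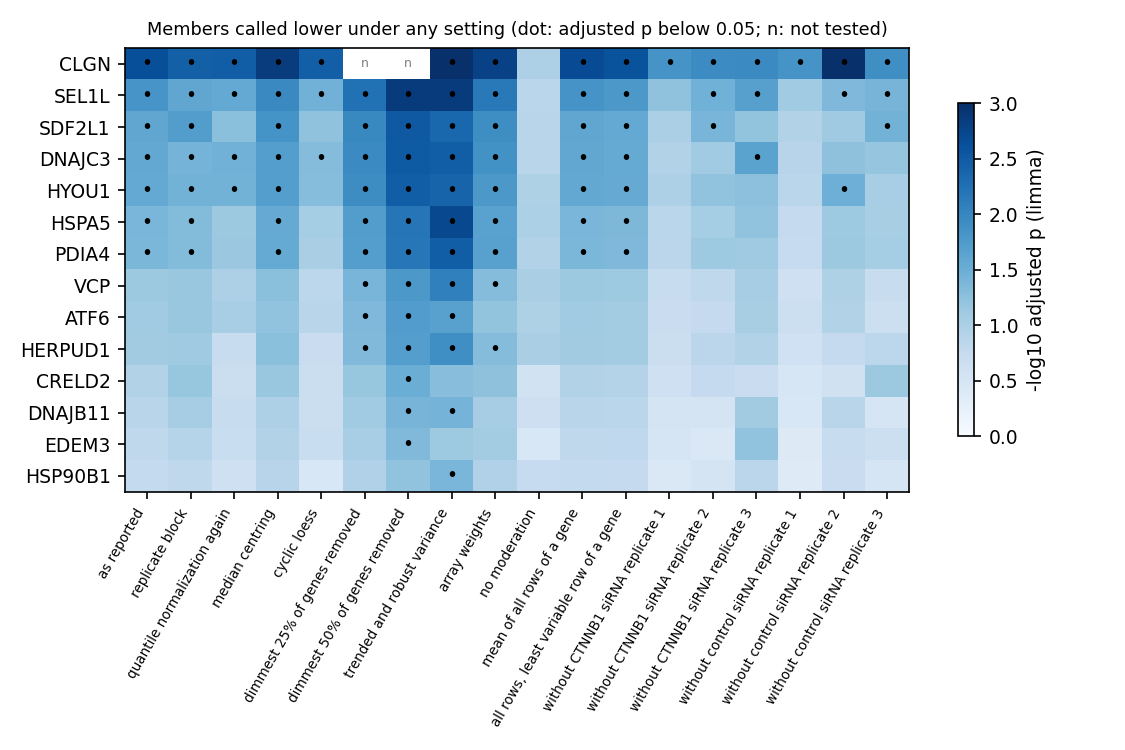
Rows are the 14 members called lower under at least 1 setting, columns the settings, and the shade gives the -log10 of the limma adjusted p; a dot marks an adjusted p below 0.05 and n a gene not tested. CLGN and SEL1L keep their dots in most columns, while no gene has a dot in the test without moderation.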

How the data were processed

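The deposited values are on a log2 scale and come from RMA and Affymetrix Expression Console 1.1, per the submitters' processing notes. The labels' protocols state that 500 ng of total RNA was labelled per sample, and the design text names hybridisation to Affymetrix Human Gene ST arrays. The genome build is not given in the sources used here. The log2 scale of the values was inferred from their range (0.789 to 14.5). No background call per probe was at hand, and having few arrays limits the precision.

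Of 33297 rows, 19460 had exactly 1 gene symbol and 1754 several. Keeping the brightest row per gene gave 18417 genes, with no filter and no further scaling. The test was limma's (version 3.58.1, under R 4.3.3), two-sided, with lmFit and then eBayes on the difference CTNNB1 siRNA minus control siRNA, and p-values were adjusted over all genes by Benjamini-Hochberg. "Rose" and "fell" mean an adjusted p under 0.05. The fit was tested on simulated data. No arrays of a group were duplicates: their values differed with an SD over genes of 0.203 to 0.262. Named were all members, CTNNB1, and per further ER list up to 4 called genes with the smallest p. The members, lists and alternatives were chosen with earlier results of these data known. Promoter sequences are RefSeq's (GRCh38.p14).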

Additional observations from a re-analysis of the deposited data

How the results depend on the processing

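Alternatives were a replicate block, 3 other scalings, removal of dim genes, array weights, a robust variance with a trend, no moderation, other choices of row, a threshold of 0.10 and leaving out each array. No member rose under any of them, and no call changed sign. Deviations from the group mean correlated between same-numbered arrays with r of -0.02, 0.33 and 0.22 over genes, and not every array correlated best with its own number, so the numbers were not taken as pairs. With the replicate block 7 members fell, the same 7 genes, and 7 genes of the other ER lists fell. The number of members that fell was 4 after a further quantile normalization, 3 under cyclic loess, 12 without the dimmest 50% of genes, 12 with the trended and robust variance, 0 without moderation, and 1 to 3 with 1 array left out. Without moderation no member passed, and CTNNB1 changed by -0.77 with an adjusted p of 0.066. The members' median change was -0.16 under cyclic loess and -0.25 to -0.17 with 1 array left out. In the other ER lists, falls and rises numbered 4 and 4 under cyclic loess, 18 and 5 without the dimmest 25%, 31 and 8 without the dimmest 50%, 20 and 6 with the trended variance, 0 and 0 without moderation, 20 and 6 at a threshold of 0.10, and 0 to 8 and 0 to 3 with 1 array left out. The change of 25 members kept its sign in every alternative, and the 9 that turned had not been called. The cause of these shifts was not tested.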
